A study of Mus musculus with 13 samples.

Results

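The comparison described here was between damaged hepatocytes (dHeps) cultured without forskolin, in a cocktail called 5C-F, and dHeps cultured with the full cocktail of 5 compounds, called 5C. It asks what changed across all genes when forskolin alone was left out. The members were the 2 libraries of 5C-F and the 2 libraries of 5C, which are 4 of the 13 libraries of the series, chosen by the group that each sample label gives. All 4 came from hepatocytes of wild-type mice that had a liver injured over a long time with carbon tetrachloride (CCl4), kept for 16 days in serum-free Hepatocyte Maintenance Medium. Both groups received Salidroside (a plant glycoside), CID755673 (which inhibits protein kinase D), GSK429286A (which inhibits ROCK) and ETC-1002 (which activates AMPK), so that forskolin was the only labelled difference. The cells were taken by collagenase perfusion of the liver, and the mice were on a C57BL/6 background per the study's methods. The study's methods give an age for its tdTomato reporter strains, and none is tied there to mice labelled wild type. The methods describe replicates as separate biological ones, without saying whether the 2 libraries of a group differed by mouse or by culture. The p-values therefore measure a spread between libraries of a group, whatever its source, estimated over all 13 libraries in 1 fit. Other groups served for context: solvent (DMSO), and 5C without GSK429286A (5C-G), without CID755673 (5C-C) or without ETC-1002 (5C-E), each with 2 libraries, and 5C without Salidroside (5C-S), with 1.

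Forskolin is a plant diterpene that activates adenylate cyclase, the enzyme that makes cyclic AMP (cAMP). cAMP activates protein kinase A, which phosphorylates the transcription factor CREB. CREB binds the cAMP response element in the promoters of many genes, among them phosphodiesterases that break cAMP down again. In the liver this pathway is known as the one through which glucagon raises gluconeogenesis. Forskolin is also known as a ligand of the pregnane X receptor, a nuclear receptor that senses foreign compounds and drives Cyp3a11. These statements are background and not results of these data.

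Total counts were 33512657 and 30672924 in the 5C libraries and 38668923 and 41906389 in the 5C-F libraries, within the range of the series, 30195867 to 45491932. The 5C-F libraries differed from each other more than the 5C libraries did, with a chi-square per degree of freedom of 67.7 against 14.8. Gene differences between the pair 5C-F1 and 5C-F2 went with the GC content of the gene (Spearman's rho 0.54 over 12935 genes), whereas for the pair of 5C libraries rho was 0.04. For 5C-F against 5C it was 0.38. The part of GC content in single results was not tested beyond a refit with a GC and length offset, which ended 26 of the 101 calls among the genes that the naming rule chose and some of whose values are given beside the results. All 8 hepatocyte markers and all 5 mesenchymal markers checked had counts in all 4 libraries. The 6 macrophage markers checked had counts too, except for 1 with a count of 0 in 5C1. Of the markers of other cells, Pecam1 and Cdh5 (endothelium), S100a9 and Ly6g (neutrophils) and Cd3e (T cells) had a count of 0 in all 4.

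Of 19884 genes tested with edgeR's quasi-likelihood test, 962 were called, meaning a Benjamini-Hochberg adjusted p under 0.05 and a log2 fold change beyond 1. They were 4.84% of the genes tested. Without forskolin 534 genes rose (2.69%) and 428 fell (2.15%). Among genes averaging at least 5 FPKM (fragments scaled for gene length and library depth) in the higher group, the rising genes were led by the chemokine Ccl8, the steroid reductase Akr1c18 and the macrophage enzyme Cbr2. The falling genes were led by Gstm3, a glutathione transferase, and by Cyp3a11 and Cyp3a25, which oxidize drugs and steroids. The split depended on the scaling: with total counts in place of TMM factors, 369 genes were higher and 586 lower, and the median of all genes shifted by -0.108. With the GC and length offset the calls were 354 higher and 379 lower. Without 5C2, 294 genes were called in all, without 5C1 368 and without 5C-F2 639.

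**Figure D1:**
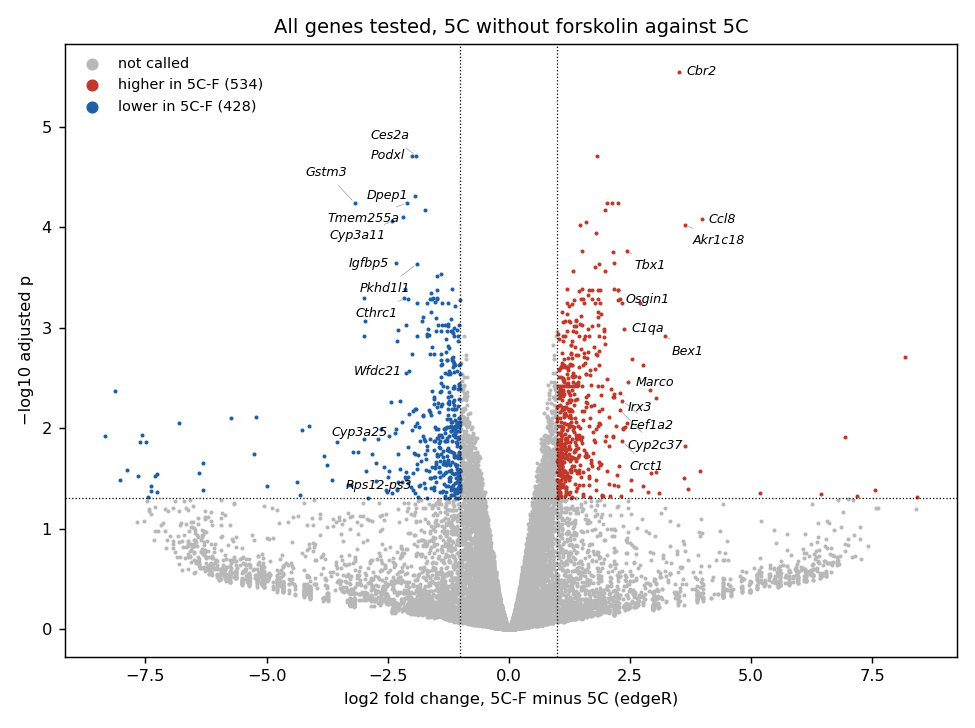
Each point is 1 of 19884 genes tested, with the log2 fold change of 5C-F minus 5C on the horizontal axis and −log10 of the adjusted p on the vertical axis. Red points are the 534 genes called higher, blue points the 428 called lower, dotted lines mark the thresholds, and the labelled genes are the 12 with the highest and the 12 with the lowest fold change among those averaging at least 5 FPKM in the higher group.

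Of the genes of the cAMP pathway in 3 lists, 5 fell and 1 rose. The share called was 20% of the feedback list, 5% of the immediate CREB targets and 3.23% of the machinery, beside 4.84% of all genes tested. The list of cAMP feedback genes holds phosphodiesterases, kinase inhibitors and other brakes that are known to be induced by cAMP. Of its 20 genes, all tested, 4 fell (2.15% of all genes did) and 0 rose, with a median log2 fold change of -0.22 against -0.01 over all genes. The 4 were the phosphodiesterases Pde7b, Pde4b and Pde3a and the G protein regulator Rgs16. Pde4b read 0.965 and 1.19 FPKM in 5C against 0.496 and 0.261 FPKM in 5C-F, a log2 fold change of -1.40 ± 0.32 (SE, adjusted p = 0.0117). Pde7b read 0.675 and 0.816 FPKM in 5C and 0.216 and 0.306 FPKM in 5C-F (-1.42 ± 0.43, adjusted p = 0.0436). In both genes the 2 groups did not overlap, as was so for 33.7% of all genes tested in this direction and 22.2% in the other.

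Each of the 4 feedback calls was lost when 1 of several libraries was left out. Pde7b lost its call when any 1 library was left out (adjusted p 0.122 without 5C1, 0.227 without 5C2, 0.191 without 5C-F1 and 0.123 without 5C-F2). Pde4b lost it without 5C2 (0.123) and without 5C-F2 (0.112). Counts of feedback genes called lower were 1 without 5C1, 0 without 5C2, 2 without 5C-F1 and 1 without 5C-F2. Rgs16 was at 2.97 and 2.73 FPKM in 5C and 0.894 and 1.57 FPKM in 5C-F. Pde3a was at 4.08 and 3.90 FPKM in 5C and at 2.47 and 1.19 FPKM in 5C-F, where the library 5C-F2 was the lower. Sik1, a kinase induced by cAMP, read 7.09 and 7.43 FPKM in 5C and 6.95 and 8.69 FPKM in 5C-F and did not pass (0.20 ± 0.23, adjusted p = 0.627).

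Among 20 immediate CREB targets, 1 rose and 0 fell, beside 2.69% and 2.15% of all genes, and the median was -0.11. The one that rose was Areg, which encodes the growth factor amphiregulin and which the deposited tables list under the symbol Mcub (its Ensembl identifier is that of Areg). Areg read 2.28 and 1.23 FPKM in 5C and 7.97 and 6.66 FPKM in 5C-F. The groups did not overlap, as was so for 22.2% of all genes tested in this direction. Areg had a log2 fold change of 2.16 ± 0.49 (adjusted p = 0.0121). Its adjusted p was 0.0501 without 5C1, 0.151 without 5C2 and 0.0544 without 5C-F1. Fos, an early transcription factor, was at 52.8 and 44.4 FPKM in 5C and 26.6 and 33.8 FPKM in 5C-F, with a log2 fold change of -0.59 (adjusted p = 0.0495) that stayed under the fold threshold. Ppargc1a, the coactivator of gluconeogenesis, was at 0.895 and 0.657 FPKM against 0.787 and 0.617 FPKM, and its groups overlapped (-0.04 ± 0.46, adjusted p = 0.983). Of 31 genes of the cAMP machinery tested (cyclases, G proteins, kinases, CREB and its coactivators), 1 fell and 0 rose, beside 2.15% and 2.69% of all genes, with a median of -0.31. That gene was Adcy2, an adenylate cyclase and so a member of the enzyme family that forskolin acts on, at 3.49 and 3.39 FPKM in 5C and 0.834 and 1.6 FPKM in 5C-F (-1.41 ± 0.35, adjusted p = 0.0182, but 0.0997 without 5C1, 0.114 without 5C2 and 0.120 without 5C-F1). The other 8 cyclase genes tested were not called. Their estimates were negative for 7 and positive for Adcy4 (0.72 ± 1.19, but -0.10 without 5C1). Adcy1 had an adjusted p of 0.0259 at a log2 fold change of -0.82, under the fold threshold. Adcy6 was at 7.70 and 7.47 FPKM in 5C and 2.96 and 4.6 FPKM in 5C-F (adjusted p = 0.0591).

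**Figure D2:**
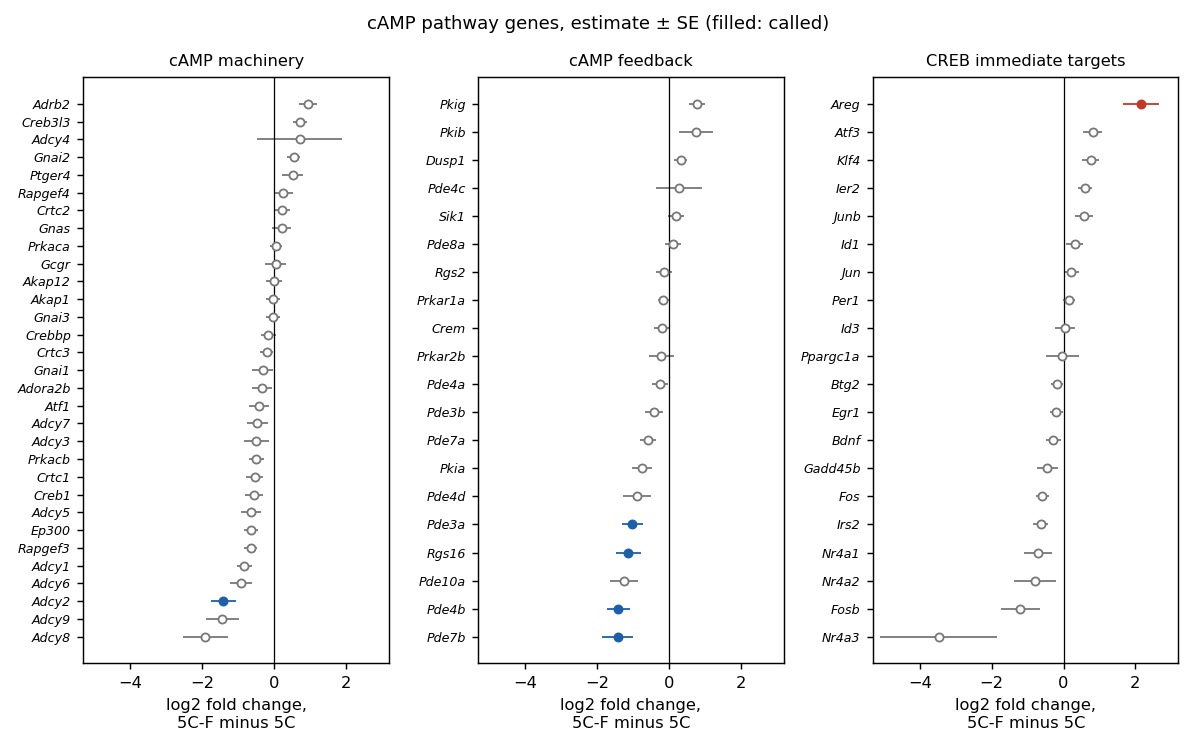
Log2 fold changes of 5C-F minus 5C with their SE for the tested genes of the cAMP machinery (31), the cAMP feedback list (20) and the immediate CREB targets (20). Filled blue points were called lower (Adcy2, Pde3a, Rgs16, Pde4b and Pde7b), the filled red point was called higher (Areg), and open points were not called.

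The promoters of 3 genes that hold the cAMP response element are printed because they stand for the 3 outcomes seen: lower (Fn1), higher (Areg) and not called (Ppargc1a). Each is the genome sequence from 250 bases before to 50 bases after the start of the gene's canonical transcript (GRCm39, GENCODE M39), 5′ to 3′ on the strand of the gene, with the full palindromic element TGACGTCA in capitals. Fn1 lies on the minus strand at chr1:71692370-71692669, with the element ending 67 bases before the start site. Areg lies on the plus strand at chr5:91287201-91287500, with 46 bases, and Ppargc1a on the minus strand at chr5:51711215-51711514, with 75 bases.
Fn1: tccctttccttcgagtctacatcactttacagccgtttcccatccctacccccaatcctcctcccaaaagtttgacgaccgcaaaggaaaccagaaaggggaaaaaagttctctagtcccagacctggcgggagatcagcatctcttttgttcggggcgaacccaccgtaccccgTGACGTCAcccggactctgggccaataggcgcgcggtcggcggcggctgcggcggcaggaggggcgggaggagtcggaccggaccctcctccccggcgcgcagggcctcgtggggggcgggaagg
Areg: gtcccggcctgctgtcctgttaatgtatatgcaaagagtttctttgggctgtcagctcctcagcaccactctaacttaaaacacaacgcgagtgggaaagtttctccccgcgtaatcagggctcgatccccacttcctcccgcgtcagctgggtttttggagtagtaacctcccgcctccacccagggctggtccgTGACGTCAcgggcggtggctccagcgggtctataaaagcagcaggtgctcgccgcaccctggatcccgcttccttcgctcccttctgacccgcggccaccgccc
Ppargc1a: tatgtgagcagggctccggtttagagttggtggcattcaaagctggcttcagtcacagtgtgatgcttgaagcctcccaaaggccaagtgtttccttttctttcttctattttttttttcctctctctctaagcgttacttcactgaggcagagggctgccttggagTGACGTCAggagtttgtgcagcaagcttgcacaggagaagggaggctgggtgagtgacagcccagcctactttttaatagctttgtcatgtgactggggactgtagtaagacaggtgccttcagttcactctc

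Searched on both strands, TGACGTCA stood in 490 of 19786 promoters of tested genes (2.48%), in 7 of 533 promoters of genes that rose (1.31%) and in 10 of 428 of genes that fell (2.34%). The shorter TGACG, which the full element contains on each strand, stood in 25.1% of all promoters, 19.7% of those of genes that rose and 21.7% of those of genes that fell. In the feedback list 3 of 20 promoters held the full element (Dusp1, Pde7b and Sik1), and in the list of immediate targets 4 of 20 did (Areg, Btg2, Ier2 and Ppargc1a). Of these 7 genes, Pde7b fell, Areg rose and 5 were not called. A match is a description of these letters in this window and not a bound site.

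Enzymes of drug metabolism split in opposite directions. Of 25 cytochrome P450 genes and their reductase tested, 4 rose and 2 fell, beside 2.69% and 2.15% of all genes, with a median of 0.43. Cyp3a11 (chr5:145791236-145816867), a main drug-oxidizing enzyme of mouse liver and a known target of the pregnane X receptor, read 173 and 191 FPKM in 5C and 42.2 and 21.3 FPKM in 5C-F. It fell 5.29-fold (-2.40 ± 0.26, adjusted p = 8.62e-05). Cyp3a25 was at 11.5 and 8.56 FPKM in 5C and 2.98 and 0.617 FPKM in 5C-F (-2.36 ± 0.53, adjusted p = 0.0111), with adjusted p 0.0822 without 5C1, 0.0511 without 5C2 and 0.0650 without 5C-F2. In DMSO Cyp3a11 read only 0.708 and 0.542 FPKM, so both groups with compounds stood far above solvent. The 4 genes described next handle foreign compounds or bile acids, fell as well, and kept their calls whichever library was left out.

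Gstm3 (chr3:107871012-107881730), a glutathione transferase, was at 156 and 155 FPKM in 5C and 18.1 and 13.7 FPKM in 5C-F, a fall of 9.08-fold (-3.18 ± 0.32, adjusted p = 5.73e-05). Ces2a, a carboxylesterase that cleaves ester drugs, was at 27.9 and 27.8 FPKM in 5C and 6.74 and 7.07 FPKM in 5C-F (-1.91 ± 0.17, adjusted p = 1.94e-05). Slco1a4, an uptake transporter for organic anions and bile acids, was at 3.35 and 2.52 FPKM in 5C and 0.660 and 0.586 FPKM in 5C-F (-2.13 ± 0.32). Abcb11, the bile salt export pump, was at 1.93 and 2.49 FPKM in 5C and 0.592 and 0.523 FPKM in 5C-F (-1.88 ± 0.30, adjusted p = 0.00121). The bile acid list as a whole held 3 lower and 2 higher calls of 23 tested (median 0.34), beside 2.15% and 2.69% of all genes, the other fall being Akr1d1, a reductase of bile acid synthesis (-1.83 ± 0.43, adjusted p = 0.101 without 5C1, 0.0702 without 5C2 and 0.116 without 5C-F2). Its 2 rises were Fgfr4, the hepatocyte receptor that represses bile acid synthesis (1.55 ± 0.26, adjusted p = 0.0556 without 5C2), and the export pump Abcc4 (1.23 ± 0.25, adjusted p = 0.0701 without 5C1 and 0.0829 without 5C2). Among 26 genes of phase II conjugation tested, 2 fell (7.69%, beside 2.15% of all genes: Gstm3 and the bilirubin transferase Ugt1a1) and 0 rose, with a median of 0.05. The call of Ugt1a1 (-1.04 ± 0.29, adjusted p = 0.0290) was lost without any 1 library (0.0681 to 0.168).

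The P450 genes that rose belong to other families. Cyp2c29 read 170 and 165 FPKM in 5C and 395 and 270 FPKM in 5C-F (1.10 ± 0.24, adjusted p = 0.0105). Cyp2b10, the classical target of the constitutive androstane receptor, read 88.3 and 78.0 FPKM in 5C and 194 and 139 FPKM in 5C-F (1.11 ± 0.21, adjusted p = 0.00416). Cyp2c37 was at 4.79 and 5.26 FPKM in 5C and 31.3 and 14.2 FPKM in 5C-F (2.29 ± 0.47, adjusted p = 0.00660), and Cyp4a14, a fatty acid hydroxylase, went from 11.2 and 10.1 FPKM to 35.1 and 20.9 FPKM (1.51 ± 0.30, adjusted p = 0.00680). In each of the 4 the library 5C-F1 was the higher of its group, and the groups did not overlap, as was so for 22.2% of all genes in this direction. All 4 calls were lost without 5C2 (adjusted p from 0.0801 to 0.104) and without 5C-F1, where the estimates ran from 0.75 to 1.56. Those of Cyp2c29, Cyp2c37 and Cyp4a14 were also lost without 5C1 (0.0701 to 0.0926). Genes of the Cyp2b, Cyp2c, Cyp3a, Cyp4a, Gstm and Ugt families have near-identical copies among which reads can be split, so values of single members are uncertain. The receptors themselves were not called: Nr1i2, the pregnane X receptor, read 8.04 and 6.85 FPKM in 5C and 8.76 and 12.9 FPKM in 5C-F (0.64 ± 0.24, adjusted p = 0.0918), and Nr1i3, the constitutive androstane receptor, stayed at or under 0.196 FPKM.

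**Figure D3:**
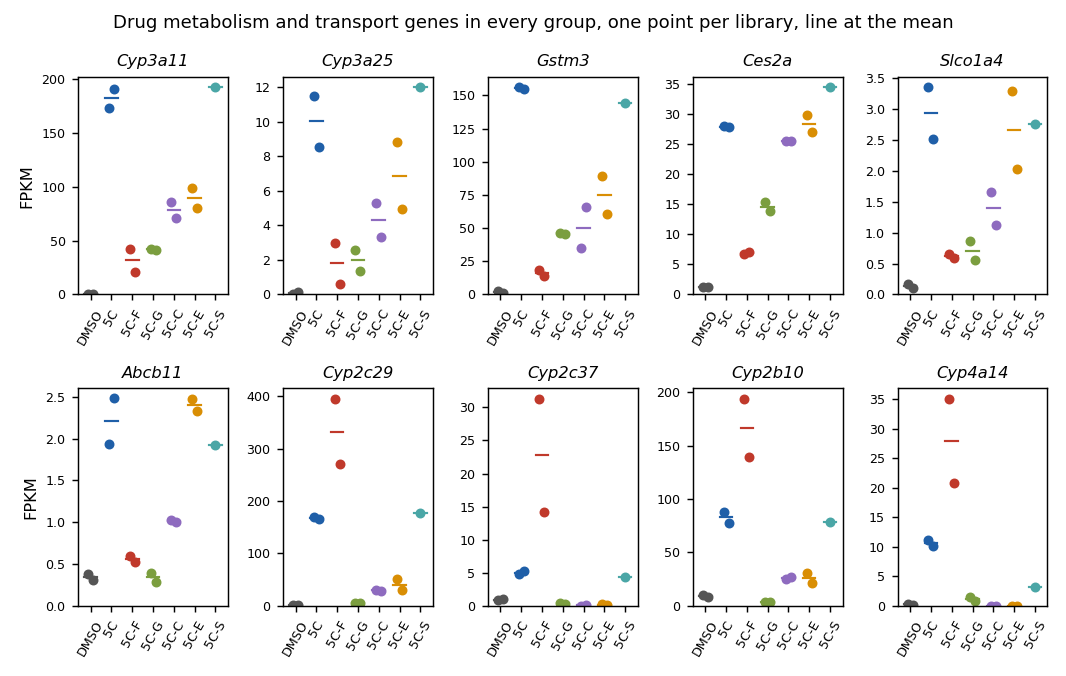
FPKM of 10 genes of drug metabolism and bile acid transport in all 7 groups, with 1 point per library, a line at the group mean and each vertical axis starting at 0. In the 6 genes Cyp3a11, Cyp3a25, Gstm3, Ces2a, Slco1a4 and Abcb11 both 5C-F libraries lie below both 5C libraries, and in Cyp2c29, Cyp2c37, Cyp2b10 and Cyp4a14 they lie above them.

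Of 41 genes for proteins that hepatocytes secrete into the blood, 8 rose without forskolin and 0 fell, beside 2.69% and 2.15% of all genes. The median was 0.69, and 10 of the 41 had a negative estimate. Albumin (Alb) was at 9437 and 9425 FPKM in 5C and 18255 and 13341 FPKM in 5C-F. Its log2 fold change of 0.85 ± 0.19 had an adjusted p of 0.0106 but stayed under the fold threshold, and Alb took 2.21% of all counts in each 5C library against 4.28% and 3.13% in 5C-F. Gc, the vitamin D carrier, rose from 838 and 729 FPKM to 1823 and 1439 FPKM (1.16 ± 0.17, adjusted p = 0.000866), and its estimate was 0.93 without 5C-F1, under the fold threshold.

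The others that rose were Ttr (thyroid hormone carrier, 1.02), Itih2 (1.11), Igfals (1.89) and 4 genes of the protease inhibitor alpha-1 antitrypsin, Serpina1a, Serpina1b, Serpina1d and Serpina1e (1.43 to 1.89), which are near-identical copies and uncertain as single genes. Ttr lost its call without 5C1 (adjusted p 0.0633), 5C2 (0.0525) or 5C-F1 (estimate 0.91), Itih2 without 5C2 (0.0702), and Igfals without 5C2 (0.222), 5C-F1 (0.0618) or 5C-F2 (0.0904). Serpina1a lost it without 5C1 (0.0737) or 5C-F1 (estimate 0.90). Serpina1d went from 17.0 and 19.5 FPKM to 82.5 and 43.1 FPKM. Counts of plasma protein genes called higher were 7 without 5C1, 5 without 5C2, 5 without 5C-F1 and 8 without 5C-F2. The apolipoproteins and their partners followed, with 5 of 16 higher and 0 lower, beside 2.69% and 2.15% of all genes, and a median of 0.59. Apoa1, the main protein of high-density lipoprotein, rose 3.15-fold, from 907 and 880 FPKM to 2340 and 2933 FPKM (1.66 ± 0.22, adjusted p = 0.000418). Apom, which carries sphingosine-1-phosphate on lipoprotein, rose from 7.62 and 6.72 FPKM to 27.0 and 23.7 FPKM (1.92 ± 0.36, adjusted p = 0.00385, 0.0680 without 5C2). Apoe, made by hepatocytes and macrophages alike, rose from 710 and 816 FPKM to 1799 and 3470 FPKM, and its DMSO libraries stood higher still at 3918 and 3752 FPKM. Apolipoprotein genes called higher were 2 without 5C2 and 3 with the GC and length offset.

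Of 22 hepatic transcription factors, 2 rose (9.09%, beside 2.69% of all genes) and 0 fell, with a median of 0.48. The count was 1 with the GC and length offset and 0 without 5C2. They were Foxa3 (1.17 ± 0.28, adjusted p = 0.0154) and Hhex (1.15 ± 0.21, adjusted p = 0.00345), whose adjusted p without 5C2 were 0.158 and 0.0880. Foxa3 also lost its call without 5C1 (0.0822) and without 5C-F1 (0.122). Hnf4a, the master regulator of hepatocyte identity, was at 21.5 and 18.8 FPKM in 5C and 24.1 and 31.7 FPKM in 5C-F, an estimate of 0.57 ± 0.17 (adjusted p = 0.0459) under the fold threshold. Foxa2 was at 6.54 and 5.27 FPKM in 5C and 8.38 and 12.4 FPKM in 5C-F (0.91 ± 0.28, adjusted p = 0.0460). The urea cycle list held 0 calls by edgeR, DESeq2 or limma among 9 genes, 3 of which had an unadjusted p under 0.05 with edgeR. Ass1, argininosuccinate synthase, read 104 and 97.5 FPKM in 5C and 106 and 96.8 FPKM in 5C-F. Gluconeogenesis and amino acid catabolism, for which cAMP is the known signal, gave 1 higher call of 24. That was 4.17%, beside 4.84% of all genes called, and nothing is read from it about the list. The call, of Sdsl (1.0 ± 0.27), was lost without any 1 of the 4 libraries and with the GC and length offset. With DESeq2 the list held 2 higher calls, and with limma 0. Pck1 and G6pc, the enzymes at the start and the end of gluconeogenesis, were not called (adjusted p 0.660 and 0.666).

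Macrophage markers rose as a group by the largest median of the 36 lists. Of 32 markers, all tested, 22 rose and 0 fell, beside the 2.69% of all genes that rose, and the median was 1.42. Cbr2 (chr11:120620312-120622940), a carbonyl reductase of resident macrophages, read 3.75 and 3.09 FPKM in 5C and 34.2 and 38.7 FPKM in 5C-F, a rise of 11.4-fold (3.51 ± 0.26, adjusted p = 2.83e-06). C1qa, a chain of complement C1q, read 58.7 and 58.2 FPKM in 5C and 190 and 387 FPKM in 5C-F (2.39 ± 0.37, adjusted p = 0.00103). Cd68, a lysosomal marker of macrophages, went from 50.1 and 42.5 FPKM to 143 and 179 FPKM (1.89 ± 0.27, adjusted p = 0.000565). The groups did not overlap in any of these 3 genes, as was so for 22.2% of all genes tested in this direction.

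Adgre1, which encodes F4/80, rose from 11.5 and 12.6 FPKM to 23.0 and 22.9 FPKM, and Vsig4, a complement receptor of Kupffer cells, from 38.2 and 37.4 FPKM to 105 and 87.3 FPKM. The estimate for Adgre1, 1.03, was 0.95 without 5C1 and 0.98 without 5C-F1, under the fold threshold. The Kupffer cell markers Clec4f and Timd4 were near 0 in all 4 libraries, at most 0.784 FPKM, and were not called. Leaving out 1 library gave 19 called markers without 5C1, 20 without 5C2, and 21 without either 5C-F library. The summed FPKM of the list was 943 and 1046 in 5C, 2677 and 3024 in 5C-F and 7346 and 7461 in DMSO. Against DMSO, 22 of the 32 markers were lower in 5C-F (4.22% of all genes were) and 1 was higher (3.18%). In bulk RNA, more cells of a type and more RNA per cell cannot be told apart.

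Ctss, a lysosomal protease that several of the lists share, rose from 140 and 153 FPKM to 357 and 333 FPKM. Genes of the phagocyte oxidase rose too: Ncf4 (1.80 ± 0.30), Rac2 (1.75 ± 0.29) and Ncf1 (1.31 ± 0.24) were the 3 higher calls among 29 genes of NADPH oxidase and redox control, with 0 lower calls, beside 2.69% and 2.15% of all genes, and Ncf1 lost its call without 5C1 (adjusted p 0.0564). The endothelial list gave 3 higher calls of 16, beside 2.69% of all genes. They were Lyve1, Stab1 and Fcgr2b, all of which macrophages are also known to express. Of 4 defining endothelial markers, Pecam1 and Cdh5 stood at 0 counts, and Kdr and Stab2 made up a sum of 10.8 and 9.24 FPKM in 5C and 4.64 and 5.12 FPKM in 5C-F. The part of either cell type in these calls was not tested. The lymphocyte and neutrophil list held 0 calls by edgeR, DESeq2 or limma among 9 genes tested, and 0 of the 9 had an unadjusted p under 0.05 with edgeR. S100a8, a neutrophil protein, was at 0.944 and 0.563 FPKM in 5C and 0.744 and 0.686 FPKM in 5C-F.

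**Figure D4:**
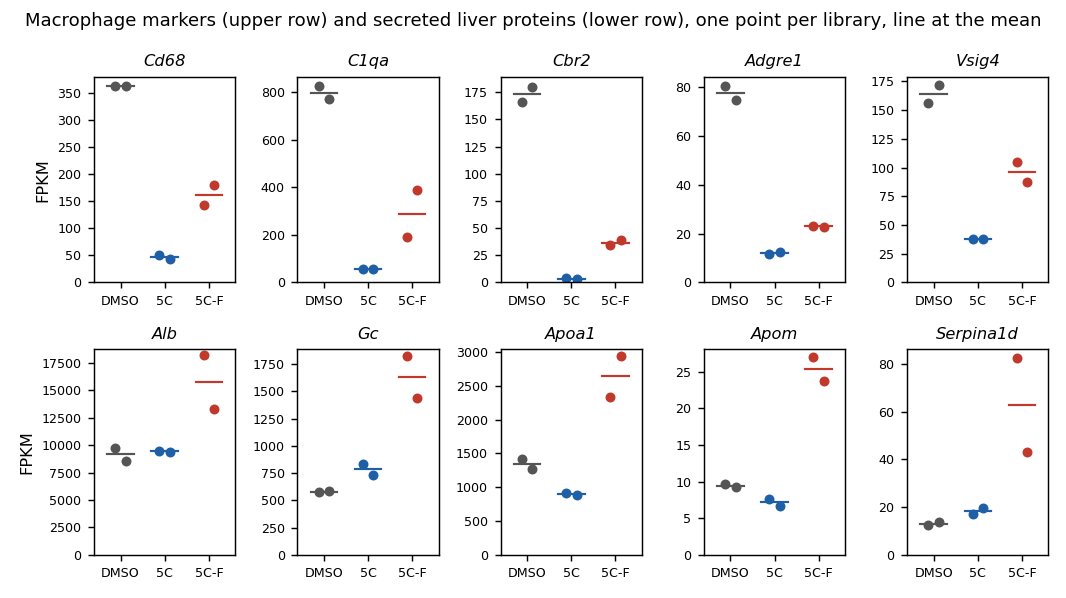
FPKM of 5 macrophage markers (upper row) and 5 genes of secreted liver proteins (lower row) in DMSO, 5C and 5C-F, with 1 point per library, a line at the group mean and vertical axes starting at 0. The macrophage markers in 5C-F lie between 5C and DMSO, whereas Alb, Gc, Apoa1, Apom and Serpina1d are highest in 5C-F.

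Chemokines and cytokines moved both ways, with 4 higher and 2 lower calls of 36 tested, beside 2.69% and 2.15% of all genes, and a median of 0.70. Ccl8 (chr11:82006007-82007625), a chemokine that attracts monocytes, rose 15.8-fold, from 0.933 and 1.78 FPKM to 20.8 and 19.2 FPKM (3.98 ± 0.44, adjusted p = 8.29e-05). Ccl6 rose from 13.9 and 15.2 FPKM to 50.2 and 61.5 FPKM (2.03 ± 0.21), and Ccl2 and Ccl9 also rose (1.25 and 1.10). In DMSO Ccl8 was at 42.4 and 42.8 FPKM, so Ccl8, like the macrophage markers, stood between 5C and DMSO, and the part of macrophage RNA in them was not tested. Ptgs2, the inducible cyclooxygenase that starts prostaglandin synthesis, fell from 4.06 in both 5C libraries to 1.32 and 1.22 FPKM (-1.57 ± 0.30, adjusted p = 0.00431). Il6 fell from 0.564 and 0.402 FPKM to 0.0425 and 0.137 FPKM (-2.31 ± 0.69, adjusted p = 0.0413), but lost its call without each library in turn (adjusted p 0.0605 to 0.195). Il1r1, the receptor of interleukin 1, fell from 51.7 and 50.4 FPKM to 16.1 and 17.8 FPKM (-1.49 ± 0.19, adjusted p = 0.000309). It was the 1 acute phase gene called of 23 tested (4.35%, beside 4.84% of all genes), from which nothing is read about the list. Ccl2 lost its call without 5C2 (adjusted p 0.127) or 5C-F2 (0.0574), and Ccl9 without 5C1 (0.108) or 5C-F1 (0.0544).

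Matrix, mesenchymal and contractile genes were lower where they passed the test, with a single exception. Of 39 collagen and matrix genes, 5 fell and 1 rose (median -0.34), beside 2.15% and 2.69% of all genes. Fn1, fibronectin, fell from 777 and 670 FPKM to 309 and 366 FPKM, at the fold threshold (-1.0 ± 0.14, adjusted p = 0.000529), and its estimate was -0.91 without 5C1 and -0.92 without 5C-F1, under the threshold. Mmp10, a stromelysin, fell from 11.9 and 9.26 FPKM to 3.15 and 2.98 FPKM (-1.69 ± 0.26). The others that fell were Timp3 (-1.64), an inhibitor of matrix proteases, Tnc (-1.12) and Col12a1 (-1.12), and the one that rose was the macrophage elastase Mmp12 (1.26 ± 0.25, adjusted p = 0.114 without 5C2). Timp3 lost its call without 5C2 (0.0544), 5C-F1 (0.0512) or 5C-F2 (0.0561), and Tnc without any 1 library (0.0693 to 0.148).

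Of 32 stellate cell and fibroblast markers, 4 fell (12.5%, beside 2.15% of all genes) and 0 rose (median -0.15). Col1a2 fell from 30.9 and 35.2 FPKM to 10.5 in both 5C-F libraries (-1.55 ± 0.36, adjusted p = 0.0135), but each library left out ended the call (adjusted p 0.0585 to 0.111). Fbln1, a matrix glycoprotein, fell from 9.2 and 9.25 FPKM to 3.33 and 4.13 FPKM (-1.21 ± 0.22, adjusted p = 0.00285), and Col6a1 and Hgf were the other calls (-1.02 and -1.69). Col6a1 was at -0.93 without 5C2 and -0.98 without 5C-F1, and Hgf lost its call without any 1 library (0.106 to 0.279). Col1a1, the partner chain of Col1a2, read 448 and 467 FPKM in 5C and 298 and 320 FPKM in 5C-F (-0.47, adjusted p = 0.107). The 5 mesenchymal markers Lrat, Des, Pdgfrb, Col1a1 and Dcn summed to 879 and 892 FPKM in 5C and 660 and 613 FPKM in 5C-F. Contractile genes gave 3 lower calls of 19 (15.8%: Actg2, Cnn1 and Synpo2, median -0.40), and 1 without 5C2. Targets and regulators of SRF and YAP, transcription factors that respond to cell tension, gave 4 lower calls of 29 (13.8%: Vcl, Prkd1, Thbs1 and Crim1, median -0.40). Neither list had a higher call, beside 2.15% of all genes called lower and 2.69% called higher. Vcl, vinculin of focal adhesions, went from 32.8 and 34.1 FPKM to 9.04 and 9.51 FPKM (-1.75 ± 0.50, adjusted p = 0.0350), and its adjusted p was 0.126 to 0.176 when a library was left out. The SRF and YAP count was 1 without 5C1 and 1 without 5C2.

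Of 25 cholangiocyte and progenitor markers, Krt23, Afp and Krt19 rose (12%, beside 2.69% of all genes) and 0 fell (median 0.65). Afp, alpha-fetoprotein of fetal liver, rose from 24.5 and 25.9 FPKM to 107 and 79.4 FPKM (1.99 ± 0.25, adjusted p = 0.000273). Krt23 lost its call without 5C2 (0.0883) and Krt19 without 5C2 (0.0565) or 5C-F2 (estimate 0.97). The list of the unfolded protein response and ATF4 gave 4 higher calls of 24 (16.7%, beside 2.69% of all genes), with a median of 0.41. They were Trib3, Ddit3, Phgdh and Sdf2l1 (1.03 to 1.30). The list held 0 calls with the GC and length offset and fewer without 5C2. Gdf15, a stress hormone, rose from 12 and 8.47 FPKM to 23.6 and 27.9 FPKM (1.43 ± 0.24, adjusted p = 0.0568 without 5C2). Igfbp1, an insulin-regulated binding protein, rose from 1157 and 992 FPKM to 2274 and 2016 FPKM (1.10 ± 0.19, adjusted p = 0.0654 without 5C2, estimate 0.97 without 5C-F1).

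Irs1, the insulin receptor substrate, fell from 0.896 and 1.04 FPKM to 0.316 and 0.239 FPKM, a call lost without any 1 library (adjusted p 0.0612 to 0.168). Higher calls in the list of fatty acid oxidation were Acaa1b and Fabp1 (2 of 28), and in zonation Hsd17b13 and Rnf43 (2 of 24). In interferon they were Oas1a and Bst2 (2 of 23), and in apoptosis Ctss, Lgals3 and Bax (3 of 24). These were 7.14% to 12.5% of the genes of each list, beside 2.69% of all genes. These lists had 0 lower calls, beside 2.15% of all genes. With the GC and length offset, fatty acid oxidation and zonation held 0 calls, and interferon and apoptosis 1 each. Interferon held 5 calls with DESeq2 or with no filter on low counts, and 0 with limma on log2(FPKM + 1). Apoptosis held 4 with DESeq2 and 2 with limma on log2(FPKM + 1). The lists that follow had 1 higher call each, 3.85% to 7.69% of their genes beside 2.69% of all genes, from which nothing is read about the lists: glycolysis (Hk3 of 26), the clock (Dbp of 18), iron and lipid uptake (Fabp4 of 17) and antigen presentation (Ctss of 13). Of these genes Ctss, Lgals3 and Hk3 kept their calls whichever library was left out, and each of the others lost its call without at least 1 library. Lipogenesis held 0 calls by edgeR with TMM or by limma among 25 genes, 1 by DESeq2, 1 by edgeR with DESeq2's size factors, with either other filter on low counts or with the compared groups alone, and 2 without 5C-F1, with 10 genes at an unadjusted p under 0.05 with edgeR. Proliferation held 0 by all 3 tools among 30 genes, with 9 at an unadjusted p under 0.05. Scd1, the stearoyl-CoA desaturase, was at 119 and 117 FPKM in 5C and 123 and 94.5 FPKM in 5C-F, and Scd2 at 137 and 127 FPKM against 121 and 112 FPKM. Pcna, a replication clamp, was at 16.8 and 19.3 FPKM against 20.7 and 20.8 FPKM. Ccnd1, the cyclin that starts the cell cycle, was at 10.6 and 11.6 FPKM in 5C and 19.1 and 20.6 FPKM in 5C-F, which stayed just under the fold threshold (0.94 ± 0.23, adjusted p = 0.0184).

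**Figure D5:**
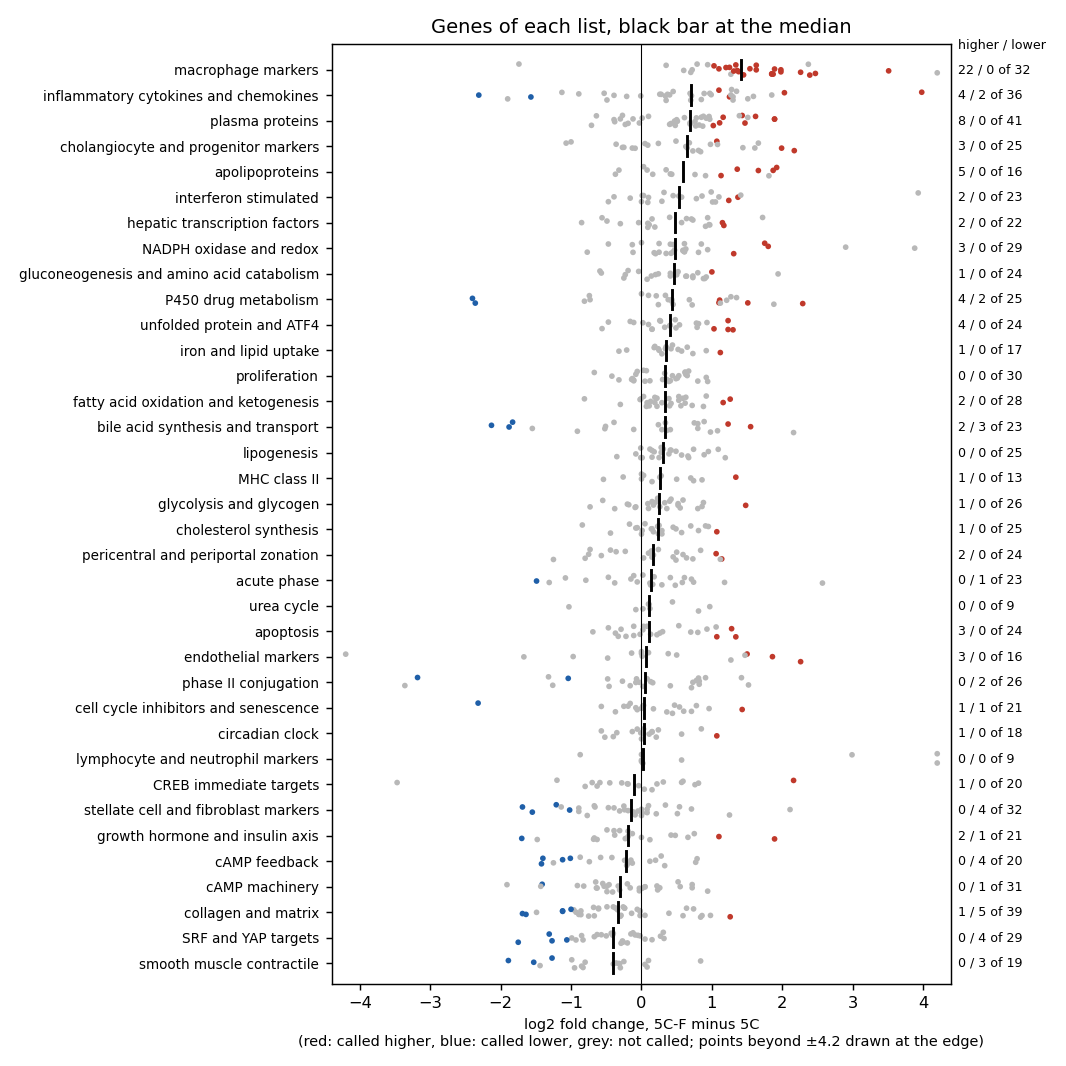
Log2 fold changes of 5C-F minus 5C for the tested genes of all 36 lists, ordered by the median (black bar), with red points called higher, blue points called lower and grey points not called. The figures at the right give the genes called higher and lower of those tested, from 22 and 0 of 32 macrophage markers at the top to 0 and 3 of 19 contractile genes at the bottom.

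Several of the largest changes lay outside the lists. Akr1c18 (chr13:4182614-4200672), which reduces progesterone, was at 2.10 and 2.64 FPKM in 5C and 31.3 and 23.9 FPKM in 5C-F, a rise of 12.5-fold (3.64 ± 0.41, adjusted p = 9.49e-05). Bex1 rose from 1.56 and 0.878 FPKM to 8.64 and 12.6 FPKM (3.22 ± 0.51), and Tbx1, a developmental transcription factor, from 3.91 and 2.81 FPKM to 14.0 and 20.2 FPKM (2.44 ± 0.29). Eef1a2, a translation elongation factor of muscle and neurons, Crct1, the homeobox gene Irx3 and the stress gene Osgin1 rose by 2.26 to 2.35 on the log2 scale.

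Podxl, a sialomucin of the apical membrane, fell 4.01-fold, from 33.7 and 35.2 FPKM to 6.64 and 9.48 FPKM (-2.00 ± 0.18, adjusted p = 1.94e-05). Dpep1, a dipeptidase, fell from 29.8 and 33.7 FPKM to 8.21 and 7.36 FPKM (-1.93 ± 0.19), and Cthrc1, a secreted protein of injured mesenchyme, from 14.7 and 12.5 FPKM to 1.69 and 4.06 FPKM (-2.15 ± 0.29). Tmem255a, Wfdc21 and Pkhd1l1 fell by 1.89 to 2.10 on the log2 scale. Igfbp5, which binds insulin-like growth factors, fell by 2.32 and was the 1 lower call among 21 cell cycle inhibitors and senescence genes, which also held 1 higher call (2.15% and 2.69% of all genes), lost with the GC and length offset. The pseudogene Rps12-ps3 read 125 and 285 FPKM in 5C and 57.5 and 49.5 FPKM in 5C-F and shares sequence with its parent gene, so its call is uncertain, and its adjusted p was 0.355 without 5C2, 0.117 without 5C-F1 and 0.208 without 5C-F2. Eef1a2 lost its call without 5C1 (adjusted p 0.0680) and without 5C2 (0.0729), Irx3 without 5C2 (0.0902), and Crct1 without 5C1 (0.102), 5C2 (0.128) or 5C-F2 (0.0565).

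A second contrast asked where the removal of forskolin stood apart from the removal of another compound. Against the mean of 5C-G, 5C-C and 5C-E, 748 genes were higher in 5C-F (3.76%) and 552 lower (2.78%), 6.54% of the genes tested in all. Without 5C-F1 the calls were 858 in place of 1300. Both contrasts use the same 5C-F libraries, so their values are given side by side only. In the same direction in both were 285 genes (121 higher and 164 lower), and 5 genes were called in opposite directions. Alb was 2.36 ± 0.14 higher on the log2 scale in 5C-F than in the other removals (adjusted p = 1.10e-08), where it read 2122 to 4482 FPKM.

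Against the other removals 21 of 41 plasma protein genes, 16 of 25 P450 genes and 13 of 22 hepatic transcription factors were higher, beside 3.76% of all genes, and 0, 1 and 0 were lower, beside 2.78%. Cyp4a14 stood at 0 counts in both 5C-E libraries and in 1 of 5C-C, and at no more than 1.53 FPKM in 5C-G. Cyp2c37 was at most 0.477 FPKM in these 6 libraries, Cyp2c29 ran from 4.44 to 50.8 FPKM and Cyp2b10 from 3.58 to 30.7 FPKM. Akr1c18 was 4.05 higher than the mean of the other removals (adjusted p = 4.51e-08), with 0.955 to 4.02 FPKM in them. Cyp3a11 and Gstm3 were lower in 5C-F against the other removals too (-1.03 and -1.79), although 5C-G, at 42.4 and 41.5 FPKM of Cyp3a11, overlapped with 5C-F.

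Among genes averaging at least 5 FPKM in the higher of 5C and 5C-F and called lower in both contrasts, those lowest against the other removals were Slit3, Sfrp1, Adcyap1r1, Cthrc1 and Prl8a2. Slit3, a secreted guidance factor, was at 16.6 and 15.7 FPKM in 5C, 5.58 and 7.11 FPKM in 5C-F and 16.9 to 87.9 FPKM in the other 3 groups (-2.69, adjusted p = 4.03e-08). Adcyap1r1, a receptor that itself signals through adenylate cyclase, was at 5.24 and 5.66 FPKM in 5C, 1.51 and 1.81 FPKM in 5C-F and 6.76 to 12.9 FPKM in the others (-2.49, adjusted p = 2.98e-07). Sfrp1, an inhibitor of Wnt signalling, was at 1.67 and 2.13 FPKM in 5C-F and 4.29 to 20.1 FPKM in the others. Macrophage markers gave another picture, with 3 of 32 higher and 0 lower against this mean, beside 3.76% and 2.78% of all genes, and a median of 0.14. The groups in the mean differed: 22 of 32 markers were lower in 5C-F than in 5C-G and 1 was higher (3.76% and 4.27% of all genes), and 21 of 32 were higher in 5C-F than in 5C-E (4.45% of all genes).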

How the data were processed

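RNA was sequenced as paired ends from 13 libraries of dHeps in 7 groups. The authors deposited gene counts and FPKM for 27141 genes, and the submitters' processing notes name featureCounts, Subread, DESeq2 and GRCm39. The aligner's version and the strand setting are not given in the sources used here. FPKM deposited by the authors matched count over length and total within 0.2% for 27140 genes. Of the gene identifiers, 26905 matched the GENCODE M39 annotation.

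Counts were tested in R 4.3.3 with edgeR 4.0.16 (TMM factors, filterByExpr with a minimum count of 10, quasi-likelihood test), with all 13 libraries in 1 fit and 6 residual degrees of freedom. The study's methods name DESeq, so edgeR took its place. A call needed an adjusted p under 0.05 (Benjamini-Hochberg over 19884 genes) and a log2 fold change beyond 1. Errors on log2 fold changes are SE from the same fit, which pools the spread over all groups, with 2 libraries in each group compared. Alternatives were total counts, DESeq2 1.42.0 and its size factors, limma 3.58.1 on log2(FPKM + 1) and log2(FPKM + 0.1), other filters, the compared groups alone, an offset for GC content and length, and leaving out each library. The fits were tested on simulated data.

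Genes named were the 12 highest and 12 lowest calls (mean of at least 5 FPKM in the higher group, groups not overlapping, no predicted models), up to 4 called members of each of 36 lists or, where 0 were called, the 2 most abundant, Alb, Foxa2, Hnf4a and the cyclases, and the 5 highest and 5 lowest called in both contrasts. Other genes were named after their values were seen. The members and lists were chosen with earlier results of these data known. Some items are not reported here.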

Additional observations from a re-analysis of the deposited data

How the results depend on the processing

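No paired analysis was possible because the running numbers of the columns mark no shared mouse, culture or batch in the labels. The 962 calls of 5C-F against 5C became 341 with limma on log2(FPKM + 1), 619 with limma on log2(FPKM + 0.1) and 1672 at an unadjusted p under 0.05, and 294 to 953 when a library was left out. The 534 higher calls became 184, 291 and 816 in the same order, 354 with the GC and length offset, and 162 to 554 when a library was left out. The 428 lower calls became 157 with limma on log2(FPKM + 1), 856 at an unadjusted p, and 132 to 399. The 1300 calls against the other removals became 581 with limma on log2(FPKM + 1), 2029 at an unadjusted p, and 858 to 1543. With total counts 38.6% of calls were higher, against 55.5% with TMM. The 22 macrophage markers called stayed between 18 and 25 in all alternatives, and plasma proteins called were 5 to 8 when a library was left out. The 4 cAMP feedback calls became 0 with limma on log2(FPKM + 1), 1 on log2(FPKM + 0.1), 2 with the GC and length offset and 0 to 2 when a library was left out. Leaving a library out leaves 1 in its group, which is assumed to vary like the others, and the cause of the other shifts was not tested. Among the genes that the naming rule chose, and not over all genes tested, signs turned in 5 uncalled genes, 4 of them within 0.11 of 0. Scd2 (-0.08) turned to 0.02 with the GC and length offset and ran from -0.17 to 0.01 when a library was left out. Scd1 (-0.01) turned to 0.01 with DESeq2 or its size factors and 0.10 with the offset (-0.26 to 0.21 with a library left out). S100a8 (0.02) turned to -0.08 with total counts, -0.02 and -0.03 with limma and -0.17 with the offset (-0.27 to 0.42). Ass1 (0.11) turned to -0.24 with the offset, and Adcy4 (0.72) ran from -0.10 to 2.80 with a library left out. Of 101 named calls, 41 were kept in all alternatives, and 54 were lost without 5C2, 33 without 5C1, 27 without 5C-F1 and 31 without 5C-F2.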
